A study of Homo sapiens with 18 samples.

Results

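TERT encodes the catalytic subunit of telomerase, the reverse transcriptase that adds telomeric repeats to chromosome ends. The gene (ENSG00000164362) was taken by position, as the interval from base 1253262 to base 1298000 of chromosome 5 on GRCh37, which is 1 of 64449 annotated genes. It lies on the minus strand, its 5′ end is at base 1295183, and its main transcript (ENST00000310581) has 16 exons. The reference holds 1756 CpGs in these 44739 bases. Reduced representation bisulfite sequencing (RRBS) read 453 of them at least 10 times for HCT15, 481 for DU145 and 512 for PC3. Coverage was that high in all 3 cell lines at 406 CpGs.

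The study compared 5 commercial kits that capture methylated DNA with a methyl-CpG binding domain (MBD), followed by sequencing (MBD-seq). HCT15 is an established colon cancer cell line, and DU145 and PC3 are established prostate cancer cell lines. No cell line was treated. Each kit (MethylMagnet, MethylCollector, MethylCollector Ultra, MethylCap and MethylMiner) was applied once to DNA of each cell line, giving 15 MBD-seq libraries, and 1 RRBS library was made per cell line. A cell line within an assay is therefore a single library, and differences between cell lines compare libraries without replicates. No expression was measured in the files analysed here, and the level of TERT mRNA is not known from them.

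In most somatic tissues TERT is silent, whereas germ cells, stem cells and most tumours express it. Its promoter is rich in GC, lacks a TATA box and holds binding sites for Sp1 (the GC box, GGGCGG) and for MYC and related factors (the E-box, CACGTG). Methylation of a promoter often accompanies silencing, but TERT is known for dense methylation upstream of an unmethylated core promoter in tumour cells that express the gene. Methylation inside genes, away from the promoter, is common in active and inactive genes. MBD proteins bind methylated CpGs and bind clusters of them best, so MBD-seq reports dense methylation, whereas RRBS reports each CpG on its own.

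Distances below are counted in bases from the 5′ end, positive upstream and negative inside the gene. The core promoter runs from 50 bases inside the gene to 139 bases upstream (190 bases, 23 CpGs), and the upstream region from 140 to 570 bases upstream (431 bases, 51 CpGs). The next 430 bases, up to 1000 bases upstream, are called the near upstream part. Inside the gene, the rest of exon 1, exon 2 and the rest of the gene body from intron 2 to the last exon were kept apart.

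The 3 windows that carry the results are shown as read on the strand of TERT from GRCh37, with every CG in capitals. The first is the part of the core promoter before the 5′ end (chr5:1295184-1295322), with 15 CpGs in 139 bases. The second is the part of the upstream region in which the cell lines differed most (chr5:1295333-1295528, from 150 bases upstream on), with 27 CpGs in 196 bases. The last is the part in which methylation was high in all 3 cell lines (chr5:1295583-1295753, 400 to 570 bases upstream), with 22 CpGs in 171 bases. The limits of the second and last windows were set after their values were seen.
Core promoter window: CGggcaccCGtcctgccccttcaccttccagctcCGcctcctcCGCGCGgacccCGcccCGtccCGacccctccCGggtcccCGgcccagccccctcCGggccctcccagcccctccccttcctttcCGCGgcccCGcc
Differing upstream window: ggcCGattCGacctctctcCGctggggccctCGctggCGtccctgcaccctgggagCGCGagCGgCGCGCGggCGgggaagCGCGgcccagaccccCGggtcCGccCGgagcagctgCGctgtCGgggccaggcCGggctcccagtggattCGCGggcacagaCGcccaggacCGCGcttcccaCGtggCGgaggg
Shared upstream window: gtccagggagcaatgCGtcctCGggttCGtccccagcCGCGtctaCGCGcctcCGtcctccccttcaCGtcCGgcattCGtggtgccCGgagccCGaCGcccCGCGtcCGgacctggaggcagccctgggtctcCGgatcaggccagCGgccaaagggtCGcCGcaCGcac

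Over both strands, the core promoter window held 1 GGGCGG, 81 to 86 bases upstream, and no CACGTG. The differing window held 1 CACGTG, 158 to 163 bases upstream, and 2 GGGCGG matches, 1 of them 270 to 275 bases upstream. The shared window held neither. Of 20136 protein-coding genes, 47.7% have a GGGCGG in the 139 bases before their 5′ end and 5.28% a CACGTG. In the window matching the differing one these shares are 31.7% and 4.10%. A match is a description of the letters and not a bound site.

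A feature of the RRBS libraries bears on every value that follows. Genome-wide, a CpG inside the sequence CCGG that lay between CpGs of at most 10% methylation within 50 bases read 50.5% in HCT15 (32914 CpGs), 51.4% in DU145 (31045) and 51.3% in PC3 (37346). CpGs outside CCGG in the same position read 1.59%, 1.88% and 2.27%. Between CpGs of at least 90% both kinds read about 95%, with values from 94.5% to 95.6%. RRBS commonly cuts DNA at CCGG, and the enzyme used here is not given in the sources used here. The cause of the CCGG values was not tested. Means are therefore given over all CpGs with at least 10 reads and, beside them, over those outside CCGG. Each mean is given with the SD over CpGs, which is spread along the sequence and not a replicate error.

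The core promoter differed between the 3 cell lines. In HCT15 it was 51.4% ± 15.5 (SD, 10 CpGs) methylated, and 49.6% ± 12.3 over the 8 CpGs outside CCGG. In DU145 it was 10.8% ± 20.5 (19 CpGs), and 2.56% ± 3.77 over 16 CpGs outside CCGG. In PC3 it was 23.9% ± 26.8 (19 CpGs), and 16.0% ± 16.9 over 16 CpGs outside CCGG. All 16 CpGs outside CCGG in DU145 were at most 20% methylated, against 12 of 16 in PC3 and 0 of 8 in HCT15. The 8 CpGs in HCT15 all lie between 74 and 130 bases upstream, since those nearer the 5′ end had 7 reads or fewer and were left out by the minimum of 10 reads. Without a minimum, the HCT15 mean over all CpGs was 54.2%.

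Single CpGs spanned the whole range. In HCT15 the lowest CpG of the core promoter was 28.9% (11 of 38 reads, 95% Wilson interval 17.0 to 44.8) at 74 bases upstream. Outside CCGG the highest was 73.0% (54 of 74 reads, 61.9 to 81.8), at base 1295287. In DU145, 7 CpGs had no methylated read, and the highest outside CCGG was 13.0% (3 of 23 reads, 4.54 to 32.1) at 34 bases inside the gene. In PC3, 3 CpGs had no methylated read, each with 14 reads (95% Wilson interval 0 to 21.5). The highest outside CCGG in PC3 was 57.1% (8 of 14 reads, 32.6 to 78.6), at the same position as in DU145. The 3 CpGs inside CCGG averaged 54.9% in DU145 and 65.7% in PC3, far above their neighbours in the same library. The highest values over all CpGs were of that kind. They were 80.8% in HCT15 (59 of 73 reads) and 65.1% in DU145 (151 of 232), both at 138 bases, and 100% in PC3 (14 of 14) at 41 bases.

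The upstream region was methylated in HCT15 throughout and in the other cell lines only in part. It read 94.8% ± 6.28 in HCT15, 49.8% ± 36.2 in DU145 and 83.0% ± 25.1 in PC3, each over 40 CpGs. Outside CCGG the means over 36 CpGs were 94.6%, 47.8% and 83.6%. In HCT15, 34 of the 36 were at least 80% methylated and none was at most 20%. In DU145, 11 were at least 80% and 11 at most 20%. In PC3, 26 were at least 80% and 1 was at most 20%.

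**Figure D1:**
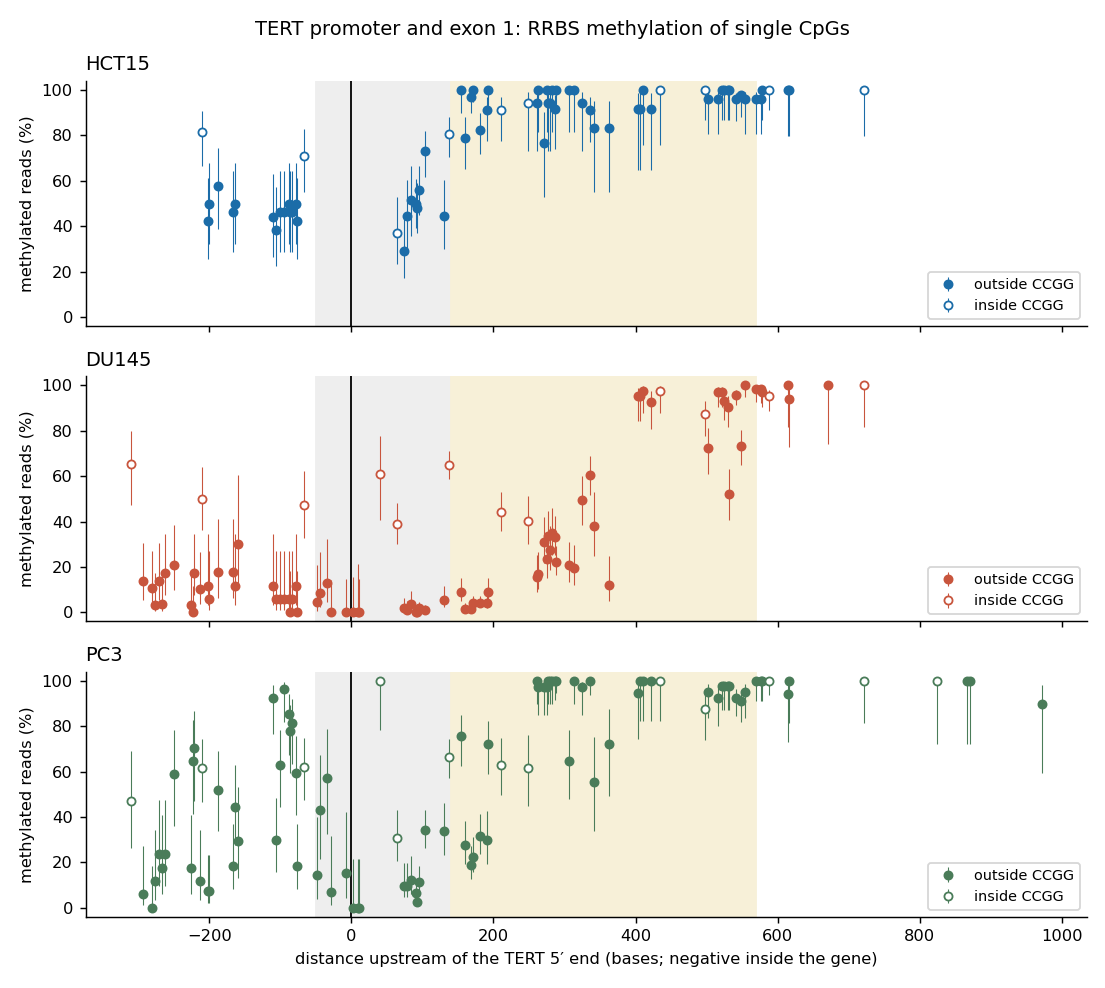
Methylation of single CpGs around the TERT 5′ end by RRBS, with the percentage of methylated reads against the distance upstream in bases. Transcription runs to the left from the line at 0. Filled points lie outside CCGG and open points inside CCGG, bars are 95% Wilson intervals, grey marks the core promoter and yellow the upstream region. All points have at least 10 reads. HCT15 rises to high levels closest to the 5′ end, PC3 further upstream and DU145 only beyond 400 bases.

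The place of the rise differed between the cell lines. Between 155 and 193 bases upstream, the 7 CpGs outside CCGG read 92.8% ± 8.92 in HCT15, 4.71% ± 3.05 in DU145 and 39.7% ± 23.8 in PC3. Between 261 and 288 bases, 9 CpGs read 94.5% ± 7.54, 26.5% ± 7.37 and 99.0% ± 1.47, so that PC3 stood with HCT15 there and DU145 did not. From 307 bases on, 6 CpGs read 92.0% ± 7.53, 33.4% ± 19.1 and 81.6% ± 19.8. From 403 to 422 bases, 4 CpGs read 93.8% ± 4.17, 95.2% ± 1.94 and 98.6% ± 2.78, and the levels of the 3 cell lines overlapped. Over the 10 CpGs from 502 to 570 bases the means were 97.8%, 87.0% and 95.6%, and in DU145 the lowest CpG of this stretch was 52.1%. The distance from which the median of 5 successive CpGs outside CCGG stayed at 50% or more was 79 bases in HCT15, 181 in PC3 and 336 in DU145. In HCT15 the CpGs outside CCGG with at least 10 reads upstream of the 5′ end begin at 74 bases. Its core promoter and exon 1 lay near 50%, so its 79 bases does not place a rise. The measure was chosen after the values were seen.

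Over the printed windows, outside CCGG, the core promoter window read 49.6% ± 12.3 in HCT15 (8 CpGs), 1.36% ± 1.84 in DU145 and 10.9% ± 12.3 in PC3 (11 CpGs each). The differing upstream window read 93.8% ± 7.54, 21.9% ± 16.2 and 75.5% ± 31.2, each over 21 CpGs. The shared window read 96.6% ± 3.21, 89.3% ± 13.8 and 96.5% ± 3.06, each over 14 CpGs. Over all CpGs, the near upstream part beyond it was 99.3% in HCT15 (6 CpGs), 97.9% in DU145 (7) and 98.4% in PC3 (10). Outside CCGG it was 99.0% (4 CpGs), 98.0% (5) and 97.7% (7).

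The CpG of the E-box, at base 1295343 and 160 bases upstream, was the lowest of the whole upstream region in DU145, with 3 of 203 reads methylated (1.48%, 95% Wilson interval 0.504 to 4.25). The same CpG was 78.7% in HCT15 (37 of 47 reads) and 27.7% in PC3 (23 of 83). The CpG of the GC box in the core promoter, 84 bases upstream, read 51.4% in HCT15, 3.81% in DU145 and 12.1% in PC3. The lowest CpG of the upstream region in PC3 was 18.7% (20 of 107 reads, 12.4 to 27.1) at 169 bases, and in HCT15 76.5% (13 of 17 reads, 52.7 to 90.4) at 271 bases. In the upstream region 16 CpGs in HCT15, 13 in PC3 and 1 in DU145 had every read methylated.

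In the rest of exon 1 DU145 was lowest, and the order of HCT15 and PC3 depended on the CpGs compared. The rest of exon 1 read 50.5% ± 11.1 in HCT15 (16 CpGs), 12.8% ± 12.3 in DU145 and 42.6% ± 29.8 in PC3 (28 CpGs each). Outside CCGG these were 46.8% (14 CpGs), 10.1% and 41.1% (26 each). Over the 16 CpGs measured in all 3 cell lines PC3 was the highest, with 53.6% against 50.5% in HCT15 and 13.4% in DU145. Outside CCGG these 3 means were 52.4%, 46.8% and 8.40% (14 CpGs). HCT15 was even along the exon, with an SD of 4.64 points outside CCGG, and PC3 was uneven, with an SD of 30.5 points. Over 8 CpGs from 78 to 110 bases inside the gene PC3 reached 73.1% ± 21.8, above HCT15 at 45.9% ± 3.64 and DU145 at 6.62% ± 3.77. A percentage near 50 in 1 library can come from a mixture of cells, from the 2 alleles or from partly methylated molecules, and these cannot be told apart from the counts per CpG.

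Exon 2, the long exon that holds much of the coding sequence before the reverse transcriptase part, was methylated in HCT15 (96.0% ± 4.63) and DU145 (97.8% ± 2.03) and lower in PC3 (76.1% ± 24.9), each over 26 CpGs. PC3 fell within the exon. Over 6 neighbouring CpGs, the nearest to the 5′ end at a distance of -743, it read 43.8% ± 7.55, against 97.8% ± 2.86 in HCT15 and 98.9% ± 1.67 in DU145. That stretch was picked after its values were seen.

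**Figure D2:**
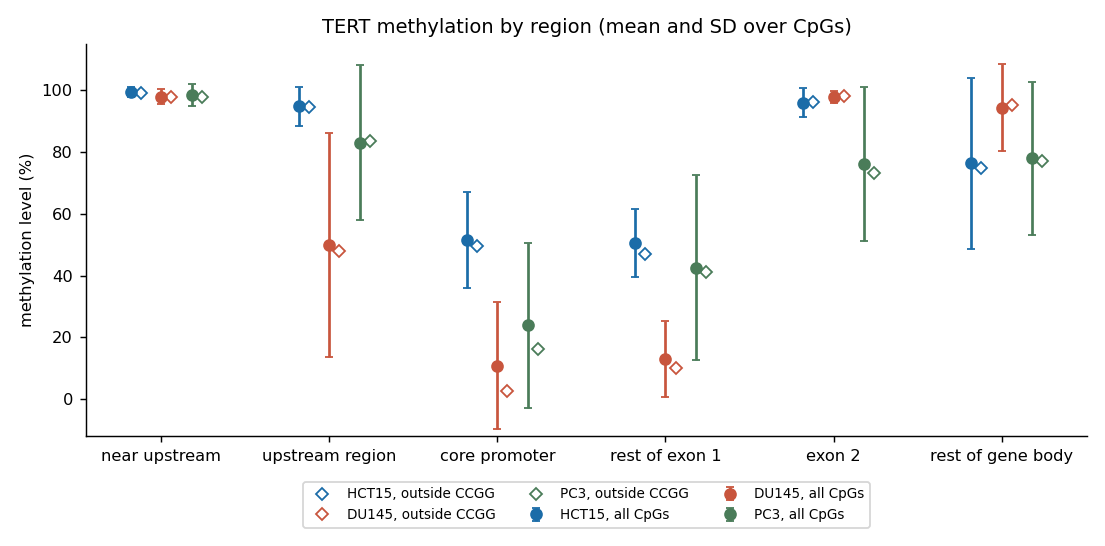
Methylation level of 6 parts of TERT in percent, from upstream at the left to the gene body at the right, in 3 cell lines. Filled circles are means over all CpGs with at least 10 reads, bars are the SD over CpGs, which can reach past 0 or 100, and open diamonds are means over CpGs outside CCGG. DU145 was lowest in the upstream region, the core promoter and exon 1 and highest in the gene body.

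Single CpGs were compared between 2 cell lines by Fisher's exact test on their reads, two-sided, with Benjamini-Hochberg adjustment over all CpGs of the genome tested in that pair. A CpG was called at an adjusted p under 0.05 and a difference of at least 25 percentage points. The test compares 2 libraries, and neighbouring CpGs share reads. Between 50 bases inside the gene and 1000 bases upstream, the 70 CpGs deposited fell into 39 runs of equal coverage in all 3 cell lines, so the CpGs are not independent. Each cell line enters 2 of the 3 pairs.

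Between HCT15 and DU145 the calls pointed one way at the promoter and the other way in the gene body. Of 411 CpGs tested in TERT, 42 were higher in HCT15 and 69 higher in DU145, against 7.18% and 6.95% of CpGs genome-wide. Those higher in HCT15 were 8 of 10 in the core promoter, 25 of 40 in the upstream region, 8 of 16 in the rest of exon 1 and 1 of 313 in the rest of the gene body. All 69 CpGs higher in DU145 lay in the rest of the gene body. Outside CCGG the counts were 39 and 52 of 300, against 111187 and 92995 of 1297512 genome-wide. Without a minimum difference in level the counts were 43 and 95 of 411, against 141015 and 155255 of 1799022.

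Between DU145 and PC3 the direction turned along the gene in the same manner. Of 455 CpGs, 77 were higher in DU145 (12.1% genome-wide) and 33 higher in PC3 (3.38% genome-wide). Those higher in PC3 were 4 of 19 in the core promoter, 20 of 40 in the upstream region and 9 of 28 in the rest of exon 1, and none lay further into the gene. Those higher in DU145 were 9 of 26 in exon 2 and 68 of 330 in the rest of the gene body.

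HCT15 and PC3 differed less in direction. Of 438 CpGs, 48 were higher in HCT15 (11.3% genome-wide) and 23 higher in PC3 (3.8% genome-wide). Higher in HCT15 were 6 of 10 CpGs of the core promoter, 8 of 40 in the upstream region, 2 of 16 in the rest of exon 1, 8 of 26 in exon 2 and 24 of 340 in the rest of the gene body. Higher in PC3 were 2 of 16 in the rest of exon 1 and 21 of 340 in the rest of the gene body. The share higher in HCT15 over the whole interval, 11.0%, was close to that of the genome.

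The largest called difference between HCT15 and DU145 was at base 1291109 in intron 2, with 0 of 10 reads methylated in HCT15 and 40 of 40 in DU145 (Fisher's exact test, adjusted p = 2.51e-09). Between HCT15 and PC3 it was at base 1291088 in intron 2, with 0% of 10 reads in HCT15 and 96.3% of 27 reads in PC3 (Fisher's exact test, adjusted p = 6.08e-07). Between DU145 and PC3 it was at base 1282905 in intron 2, with 100% of 13 reads in DU145 and 8.70% of 23 reads in PC3 (Fisher's exact test, adjusted p = 7.84e-07). Near the promoter, the largest was at base 1295354, 171 bases upstream, with 100% of 68 reads in HCT15 and 4.05% of 247 reads in DU145 (Fisher's exact test, adjusted p = 1.2e-55). At base 1295088 in exon 1, PC3 read 96.3% of 27 reads and DU145 5.88% of 17 (Fisher's exact test, adjusted p = 1.53e-08). The last 2 CpGs are the largest of the opposite direction in their pairs and were named after their values were seen.

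The rest of the gene body was most methylated in DU145. It read 94.4% ± 14.2 in DU145 (355 CpGs), 76.4% ± 27.7 in HCT15 (355) and 77.9% ± 24.8 in PC3 (382). Outside CCGG the means were 95.3% (246 CpGs), 74.8% (249) and 76.9% (271). In DU145, 334 of the 355 CpGs were at least 80% methylated, against 219 of 355 in HCT15 and 236 of 382 in PC3. Of exons 3 to 16, only exons 3, 5, 7, 8, 15 and 16 had CpGs with at least 10 reads. Outside CCGG these exons averaged 94.3% ± 9.52 in DU145, 86.2% ± 14.2 in HCT15 and 83.5% ± 18.3 in PC3. Introns averaged 95.6% ± 10.9, 71.5% ± 31.9 and 75.2% ± 26.9, so the exons lay above the introns in HCT15 and PC3 and not in DU145. The medians were closer, at 92.9% in exons and 88.9% in introns of HCT15, and 91.0% and 86.7% in PC3.

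Against other genes, the gene body of TERT was above most others in DU145 and below the median in HCT15 and PC3. In CpGs outside CCGG from 2000 bases into the gene, TERT read 95.2% in DU145, above 93.7% of 4297 protein-coding genes with at least 50 such CpGs (median 84.7%). It read 74.1% in HCT15, above 36.2% of 3690 genes (median 81.8%), and 76.6% in PC3, above 46.3% of 4105 genes (median 79.0%). The difference between DU145 and HCT15 was 21.1 points in TERT and 2.24 points in the median gene, and 97.2% of 3371 genes had a smaller one. For DU145 and PC3 it was 18.6 points against 3.02 in the median gene, with 87.2% of 3558 genes below TERT.

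**Figure D3:**
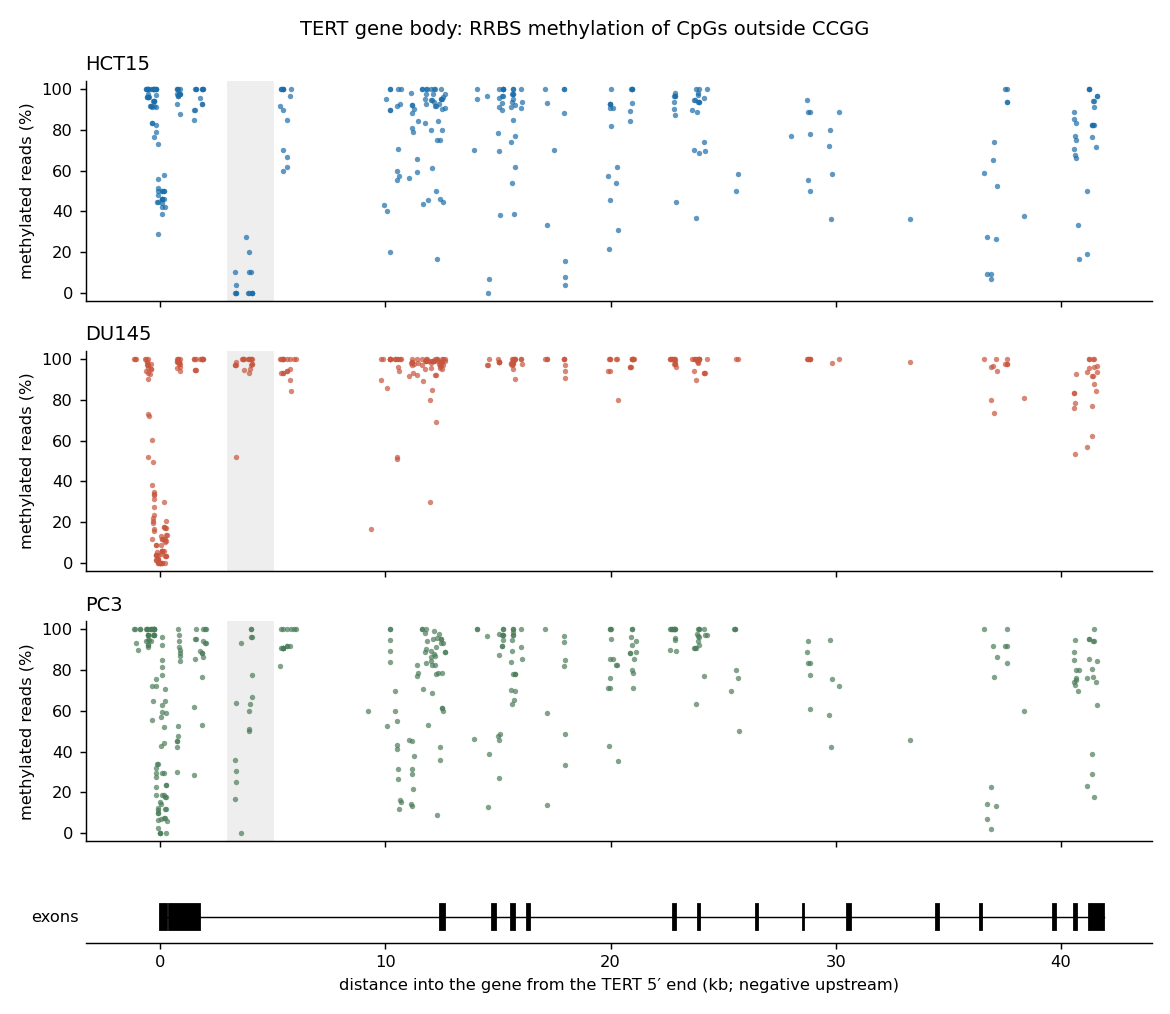
Methylation of single CpGs outside CCGG along TERT by RRBS, in percent of methylated reads against the distance into the gene in kb, with the exons drawn as black boxes below. Each point is a CpG with at least 10 reads. Grey marks the part of intron 2 from 3000 to 5000 bases into the gene, where HCT15 was near 0, DU145 near 100 and PC3 in between.

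A stretch of intron 2 stood apart. At distances from -4095 to -3319 (bases 1291088 to 1291864), 12 CpGs outside CCGG passed the minimum in all 3 cell lines. HCT15 read 4.49% ± 6.59 over them, PC3 56.2% ± 26.7 and DU145 94.2% ± 13.4. No CpG of the 12 was above 20% in HCT15, and the lowest in DU145 was 52.2%, so these cell lines did not overlap. In reads, 8 of 211 were methylated in HCT15, 611 of 655 in DU145 and 227 of 403 in PC3. All 12 lie in sequence that repeats itself at a fixed spacing, by the measure that at least 80% of the bases around a CpG match those 20 to 130 bases away. Such sequence held 25.7% of the gene body CpGs of HCT15 outside CCGG, 32.1% of those of DU145 and 25.1% of those of PC3. Its part in the result was not tested. Without it the gene body outside CCGG read 78.4% ± 25.9 in HCT15, 79.5% ± 23.4 in PC3 and 95.7% ± 9.80 in DU145, which remained the highest.

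The rise from the core promoter to the upstream region was compared with that of other genes in the same windows. The upstream region exceeded the core promoter by 43.3 points in HCT15, 39.0 in DU145 and 59.2 in PC3. In the median protein-coding gene with at least 5 CpGs in each window it did so by 3.64 points (4815 genes), 4.30 points (4331) and 4.28 points (4894). A larger rise than that of TERT was found in 3.45% of genes in HCT15, 4.11% in DU145 and 1.82% in PC3. Outside CCGG the rises of TERT were 45.0, 45.3 and 67.6 points, and 3.23%, 3.36% and 1.36% of genes had larger ones. The order of the cell lines in the levels was the same in both windows, with HCT15 highest, PC3 next and DU145 lowest.

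The genes whose 6 window means were closest to those of TERT, among 3629 protein-coding genes measured in all of them, were WNT9B, MFSD4A, GABRD, KIAA1614 and PADI2. Their mean absolute difference from TERT over the 6 values was 8.51, 8.62, 9.03, 9.05 and 9.55 points, and that of the median gene was 40.7 points. WNT9B, a Wnt ligand, read 86.5%, 40.4% and 62.5% in the upstream window of HCT15, DU145 and PC3. GABRD, a subunit of the GABA-A receptor, read 91.8%, 67.5% and 83.0%. Outside CCGG, WNT9B, GABRD, KIAA1614 and MFSD4A stayed among the closest 5 and LRRC43 took the place of PADI2. The likeness is over 6 values from 3 libraries.

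The other genes of telomerase and of shelterin, the complex that caps telomeres, had low core promoter means outside CCGG. They were under 10% wherever at least 5 such CpGs were measured. Over all CpGs some shelterin means were higher, up to 22.9% for TERF2IP in DU145 (5 CpGs). The values that follow are outside CCGG, for genes with at least 5 such CpGs in the window. Of the telomerase genes TERC, the RNA template, and DKC1, NOP10, NHP2, GAR1 and WRAP53, which bind or carry it, 3 had at least 5 CpGs outside CCGG in the core window in HCT15 and DU145 and 2 in PC3. Their values were at most 1.958% in HCT15 and 0.549% in PC3, and 0% in DU145. In the upstream window the highest value of 4 measured genes was 14.2% in HCT15 and 15.3% in DU145, and that of 3 in PC3 was 17.0%. Of the shelterin genes TERF1, TERF2, TINF2, TERF2IP, ACD and POT1, the highest core value was 6.58% in HCT15, 1.98% in DU145 and 9.09% in PC3. Their highest upstream value was 8.42%, 15.3% and 8.39%. None of either list was above 50% in any window measured. Of all protein-coding genes measured, 13.8% in HCT15, 6.25% in DU145 and 6.03% in PC3 were above 50% in the core window, and 17.6%, 10.9% and 9.96% in the upstream window. The median of the measured telomerase genes in the upstream window was 10.9%, 13.6% and 11.7%, above the median of all genes at 4.08%, 3.74% and 4.00%.

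Among the 3 nearest protein-coding genes on each side, SLC6A3, the dopamine transporter, also had a methylated upstream window that differed between the cell lines. Outside CCGG it read 93.9% in HCT15, 31.3% in DU145 and 52.9% in PC3, the same order as in TERT. The core window could not be compared, with 1 CpG outside CCGG measured. Of the other 5 neighbours (SLC12A7, SLC6A19, SLC6A18, CLPTM1L and LPCAT1), those with at least 5 CpGs in the upstream window were between 2.82% and 37.8% in the 3 cell lines. SLC12A7 and SLC6A18 had fewer CpGs there.

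The 15 MBD-seq libraries held between 10040 and 7344098 fragments, with the fewest in DU145 by MethylMagnet, MethylCollector and MethylCollector Ultra (10040 to 30336). Over CpGs methylated in a single cell line by RRBS, 12 libraries had the most fragments per CpG at those of the cell line named. The 3 MethylMiner libraries did not, and the tests and summed counts below are also given without that kit. Fragments over TERT are given as counts and as a fold over the number that uniform placement over the genome would give, with exact Poisson intervals at 95% that cover counting error only.

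Every kit captured TERT above uniform placement in every cell line. The interval is denser in CpGs than the genome, with 3.92 per 100 bases against 28162537 in the 2858658094 bases of the genome. The fold is not adjusted for this density. MethylMagnet gave 22 fragments for HCT15, 5 for DU145 and 60 for PC3, or 23.4-fold, 31.7-fold and 15.8-fold. MethylCollector gave 108, 20 and 30 fragments, or 25.9-fold, 43.0-fold and 22.5-fold. MethylCollector Ultra gave 158, 14 and 144 fragments, or 15.4-fold, 29.4-fold and 15.8-fold. MethylCap gave 670, 218 and 197 fragments, or 11.0-fold, 16.8-fold and 13.2-fold. MethylMiner gave 349, 261 and 116 fragments, or 3.02-fold, 5.62-fold and 3.53-fold. The lowest bound of the 15 intervals was 2.71 in HCT15 by MethylMiner. The fold was lowest with MethylMiner in all 3 cell lines and highest in DU145 with all 5 kits. With 0.5 fragments added, as in the tests that follow, DU145 was not the highest with MethylMagnet, MethylCollector or MethylCollector Ultra, where it rests on 5, 20 and 14 fragments.

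**Figure D4:**
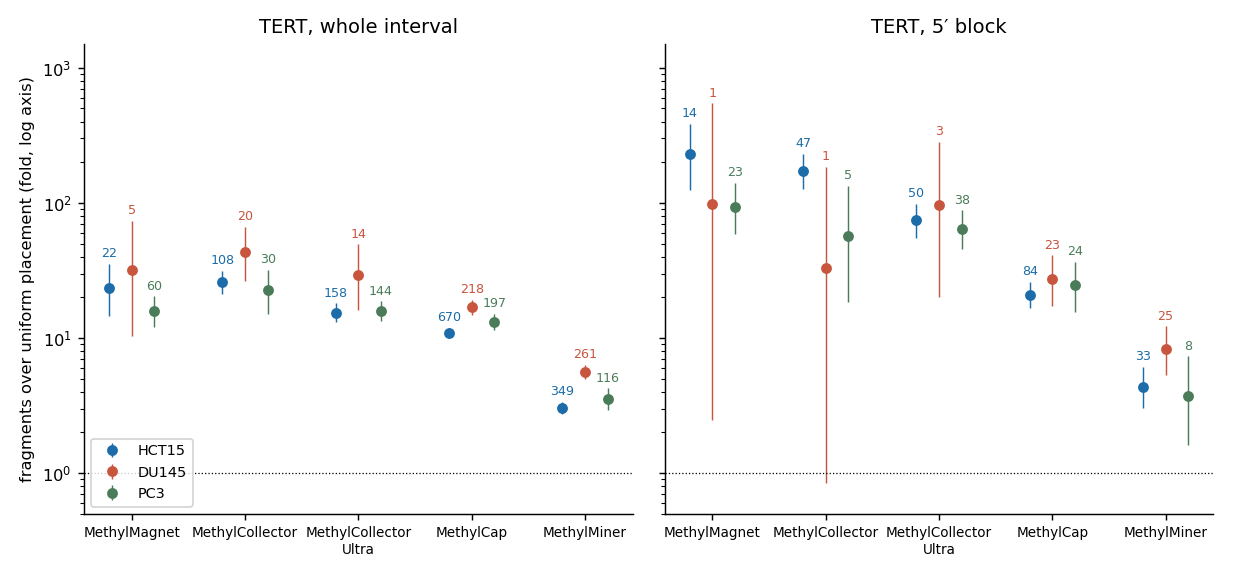
Fragments over TERT relative to uniform placement, as a fold on a log axis, for 5 kits and 3 cell lines. The left panel is the whole interval and the right panel the block from 1000 bases upstream to the end of exon 2. Points are single libraries, bars are 95% exact Poisson intervals, the number above each is its fragment count and the dotted line marks uniform placement. MethylMiner gave the lowest fold in each panel, and DU145 points with the kits at the left of the right panel rest on 1 to 3 fragments, with an interval that includes uniform placement for MethylCollector.

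The effect of the kit was tested on log2 of the fragments over uniform placement, with 0.5 fragments added to both. Kits made up 89.3% of the sum of squares over the whole interval (exact permutation test with kits permuted within cell lines, p = 0.00576, adjusted over 4 tests 0.0231). The mean log2 value was 1.958 ± 0.46 (SD, n = 3) for MethylMiner and between 3.61 and 4.33 for the other kits. Without MethylMiner the share was 54.5% (exact permutation test, p = 0.144), so the call rests on that kit. It was also lost with 1 fragment added and with each cell line left out in turn, where the exact permutation test had only 120 relabellings. The added 0.5 fragments lowers the log2 value of the shallow libraries.

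Cell lines made up 0.356% of the sum of squares over the whole interval (exact permutation test with cell lines permuted within kits, p = 0.866, adjusted 0.866). The 5 kits took the same DNA of a cell line, so they are repeat measurements and not separate cultures. The cell line tests here and over the 5′ block therefore cover repeated capture only. DU145 was 3.57 ± 0.78, HCT15 3.48 ± 1.13 and PC3 3.45 ± 0.93 on this log2 scale (SD, n = 5 kits). Cell lines were compared within kits, so this SD is not the error of their difference. Without MethylMiner the share of cell lines was 1.66% (exact permutation test, p = 0.889). The log2 values include the added fragments, which lower those of the shallow libraries. With none added, the fold was highest in DU145 with all 5 kits. With 1 fragment added, DU145 had the lowest mean, 3.20 against 3.36 in HCT15. The small share therefore does not show that the cell lines were alike. The first 10 Mb of chromosome 5 without TERT moved with the cell line too. By MethylMiner it held 1.30 times the fragments of uniform placement in HCT15, 2.05 times in DU145 and 1.37 times in PC3, and with each kit it was highest in DU145. Relative to it, DU145 had the lowest mean log2 value over TERT, 2.62 ± 0.73 against 2.71 ± 0.89 in HCT15 and 2.82 ± 0.83 in PC3 (exact permutation test, n = 5 kits, p = 0.447). These means include the added fragments as well, so the lowest mean of DU145 does not show lower capture. Copy number of this chromosome end and capture cannot be told apart from these values.

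The 5′ block, from 1000 bases upstream to the end of exon 2, held a share of the fragments that differed between kits and cell lines. It makes up 6.16% of the length of the interval and 14.8% of its CpGs. In HCT15 it held 63.6% of the fragments with MethylMagnet (14 of 22, exact 95% interval 40.7 to 82.8), 43.5% with MethylCollector, 31.6% with MethylCollector Ultra, 12.5% with MethylCap and 9.46% with MethylMiner. In PC3 these shares were 38.3%, 16.7%, 26.4%, 12.2% and 6.90%. In DU145 they were 20% (1 of 5), 5% (1 of 20), 21.4% (3 of 14), 10.6% and 9.58%. The interval of MethylCollector in PC3 (5.64 to 34.7) and those of MethylMagnet, MethylCollector and MethylCollector Ultra in DU145 included both the share of the length and that of the CpGs. The MethylCap and MethylMiner shares in the 3 cell lines had overlapping intervals.

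Over the 5′ block the difference between cell lines was not past the threshold. The mean log2 value was 4.47 ± 1.502 in HCT15, 2.55 ± 1.08 in DU145 and 3.81 ± 1.42 in PC3 (SD, n = 5 kits), and the share of cell lines was 30.4% (exact permutation test, p = 0.0949, adjusted 0.190). Without MethylMiner they made up 62.3% (exact permutation test, p = 0.0417, adjusted 0.0833). The log2 values include the added fragments, which lower those of the shallow libraries. With none added, the fold was highest in DU145 with MethylCollector Ultra (96.7, on 3 fragments), MethylCap (27.2) and MethylMiner (8.27). It was highest in HCT15 with MethylMagnet (229) and MethylCollector (173), where DU145 gave 97.8 and 33.2 on 1 fragment each. The lowest mean of DU145 therefore does not show lower capture. Kits made up 28.4% (exact permutation test, p = 0.321, adjusted 0.428), and without MethylMiner 6.00% (exact permutation test, p = 0.755). On mean depth relative to the genome in place of fragments, the cell line share was 4.46% (exact permutation test, p = 0.387, adjusted 0.516). The kit share on that measure was 80.5% (exact permutation test, p = 0.00458, adjusted 0.0115), so the call for this block depends on the measure. The cause was not tested. MethylMiner had the lowest mean log2 depth, 2.34 against 6.49 for MethylMagnet, the highest, and this test was not run without MethylMiner.

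Over the upstream region, the 5 libraries of HCT15 held 57 fragments in all, those of PC3 34 and those of DU145 11. Over the core promoter they held 22, 10 and 3. Without MethylMiner the counts were 50, 33 and 7 over the upstream region and 16, 8 and 0 over the core promoter. These counts are not scaled for depth, and the order of the folds was not the same. With MethylCap the fold over the upstream region was 38.7 in PC3 (16.7 to 76.3), 28.6 in DU145 (9.29 to 66.7) and 18.8 in HCT15 (10.7 to 30.5), with intervals that overlap. With MethylCollector Ultra and MethylMiner the fold was also higher in DU145 than in HCT15, on 2 and 4 fragments. The 3 core promoter fragments of DU145 all came from MethylMiner, and the other 4 kits had 0 there. With MethylCap, the deepest of these, the exact Poisson interval of that 0 reaches 35.0-fold over uniform placement, so the count does not show that capture was absent. In HCT15 every kit had fragments over both parts. In PC3, 14 of the 23 block fragments of MethylMagnet lay over the upstream region, with a mean depth of 5.88 there and 0.674 over the core promoter. MethylCap gave a mean depth of 3.10 and 0.647 in PC3, 4.75 and 0.2 in HCT15, and 1.28 and 0 in DU145. Mean depth was higher over the upstream region than over the core promoter in 3 of 5 HCT15 libraries, 2 of 5 DU145 libraries and 4 of 5 PC3 libraries. In DU145 the MethylMagnet and MethylCollector libraries held 0 fragments over both parts and allow no comparison. With MethylMiner mean depth was lower over the upstream region in all 3 cell lines.

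**Figure D5:**
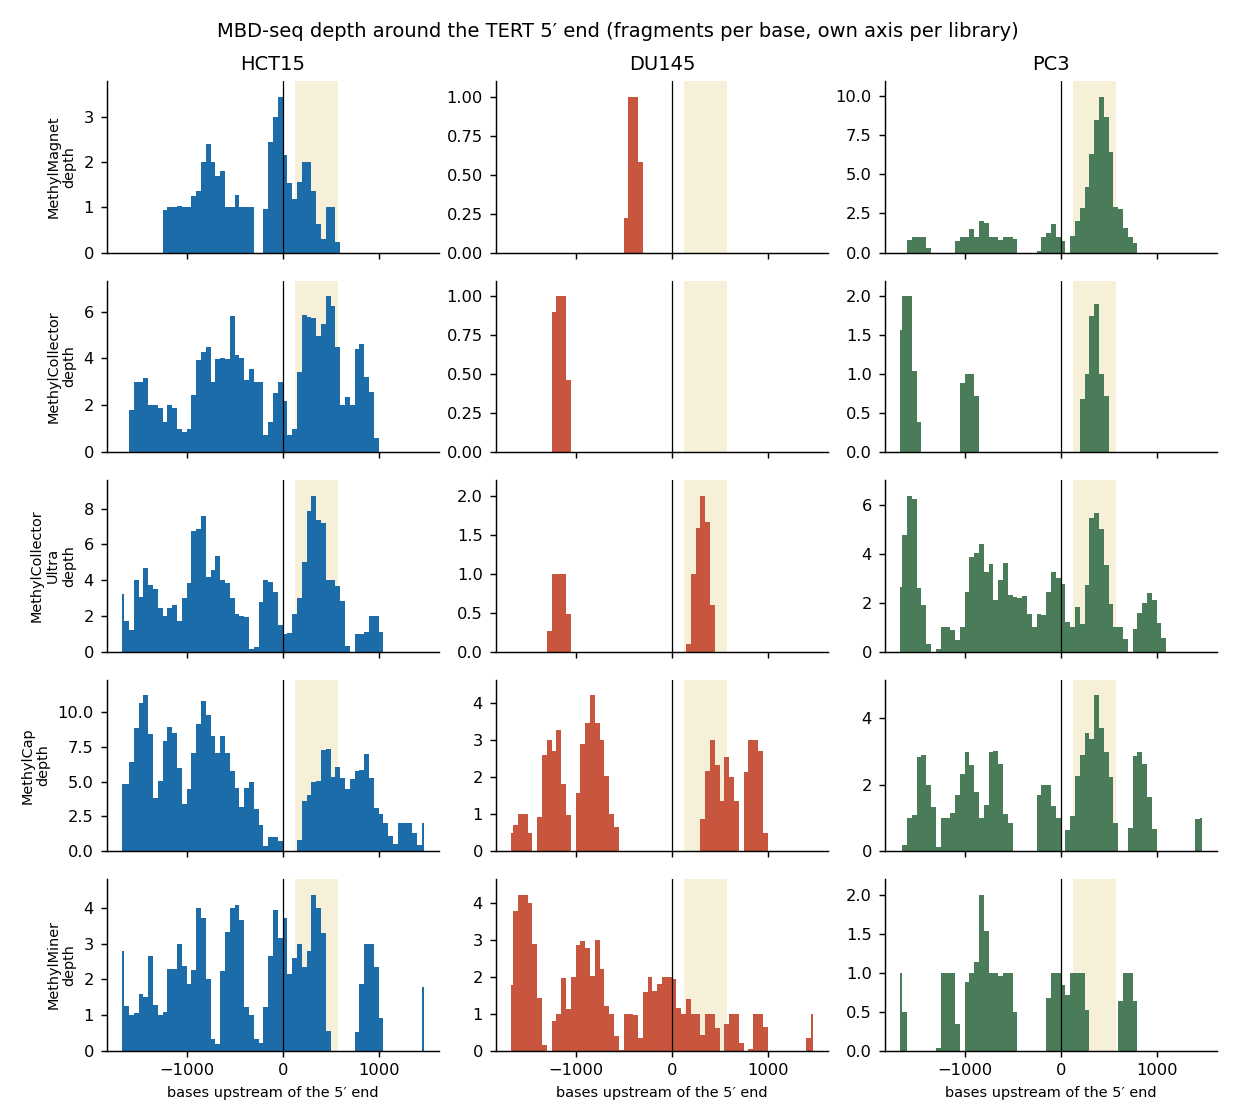
MBD-seq depth in fragments per base, averaged over 50 bases, against the distance upstream of the TERT 5′ end in bases, for each of 15 libraries, with kits in rows and cell lines in columns. Transcription runs to the left from the line at 0, yellow marks the upstream region, and each panel has its own axis. In HCT15 and PC3 most kits show a peak over the upstream region, and in DU145 depth there is 0 with MethylMagnet and MethylCollector.

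Depth along the interval followed the number of CpGs to a different degree in each kit. Over 89 tiles of 500 bases, Spearman's rho between CpGs and depth with MethylCap was 0.60 for HCT15, 0.44 for DU145 and 0.48 for PC3, and with MethylMiner 0.14, 0.22 and 0.30. With MethylCollector it was 0.66, 0.38 and 0.51, with MethylCollector Ultra 0.67, 0.16 and 0.62, and with MethylMagnet 0.36, 0.32 and 0.48. The tiles share a library and differ in base composition, and the values are a description. The tile of highest depth was the one starting 79 bases upstream, with 61 CpGs, for HCT15 by MethylCollector and MethylCollector Ultra and for PC3 by MethylMagnet. For MethylCap and MethylMiner it lay in the gene body in all 3 cell lines.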

How the data were processed

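RRBS was analysed in 3 libraries and MBD-seq in 15. The deposited RRBS files hold, per CpG, counts of the reads that were methylated and of reads in total, made by the authors' sequencing provider. The smallest deposited coverage was 6 reads. The aligner for RRBS is not given in the sources used here. The deposited MBD-seq files hold depth, a coverage signal of unique, non-duplicate fragments that the authors mapped with Bowtie to build 37 (hg19). It was not scaled.

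CpGs with at least 10 reads were used. Fragments were rebuilt from the depth, and a possible offset of 1 base was ignored. Positions, genes and sequences came from GRCh37 and GENCODE 44. Wilson and exact Poisson or binomial intervals at 95% cover counting error only. CpGs were compared by Fisher's exact test, adjusted over all CpGs tested. Kits and cell lines were compared by exact permutation tests on log2 values. Replicate error was not available, since each group is 1 library. Both tests were tested on simulated data. Python 3.11.15, numpy 2.4.6, pandas 2.3.3, scipy 1.17.1, numba 0.67.0, pysam 0.24.0, samtools 1.23.1 and matplotlib 3.10.9 were used.

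The members and gene lists were chosen with earlier results of these data known. Named CpGs were the highest and lowest of the core promoter and upstream region per cell line and the largest called difference per pair. Named genes were the 5 most like TERT. The crossing measure, the intron 2 stretch, the smaller windows, the measure of repeating sequence, the comparison of gene bodies and the alternatives on CCGG, on repeating sequence and on chromosome 5 were chosen after seeing the data.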

Additional observations from a re-analysis of the deposited data

How the results depend on the processing

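Kits and cell lines were permuted within the other factor. Without that block the adjusted p of the kit was 0.00292 over the whole interval and 0.602 over the 5′ block, and that of the cell line 0.974 and 0.235 (exact permutation tests), which changed no call. No paired analysis of RRBS was possible because each cell line is 1 library. The kit share of the whole interval lost its call with 1 fragment added (79.4%), without MethylMiner (54.5%), and without HCT15 (89.4%), DU145 (97.9%) or PC3 (87.1%). The kit share of the 5′ block gained a call on mean depth (80.5%), where the cell line share of that block was 4.46%. No single value changed sign, but orders between cell lines did. HCT15 was above PC3 in the gene body with at least 20 or 50 reads and with pooled reads, and below it by the main measure. The rise was larger in DU145 than in HCT15 with the boundary at 200 bases and outside CCGG. On log2 values that include the added fragments, DU145 had the lowest whole-interval mean relative to the first 10 Mb of chromosome 5. Those fragments lower the values of the shallow libraries, so this order does not show lower capture. With at least 50 reads the core promoter of HCT15 moved to 61.6% (5 CpGs in place of 10). The upstream region moved to 93.2% in HCT15 (3 CpGs), 44.4% in DU145 (33) and 60.4% in PC3 (12), in place of 40 in each. The gene body moved to 80.6% in HCT15 (64 CpGs in place of 355) and 73.9% in PC3 (89 in place of 382). These means rest on fewer CpGs, so they also differ in the CpGs compared. With at least 20 reads the gene body was 78.7% in HCT15 and 76.9% in PC3, and without a minimum 77.2% in HCT15 and 93.1% in DU145. Over CpGs measured in all 3 cell lines it was 94.9% in DU145 and 77.1% in PC3. Pooled reads gave 12.7% in the core promoter of DU145, 39.0% and 74.3% in the upstream region of DU145 and PC3, 78.6% and 76.2% in the gene body of HCT15 and PC3, and rises of 26.2 and 51.6 points in DU145 and PC3. With the boundary at 200 bases, the core promoter was 68.5%, 9.19% and 28.1%, the upstream region 59.4% in DU145 and 92.2% in PC3, and the rise 26.7, 50.2 and 64.1 points. With it at 100 bases, the core promoter was 45.1%, 8.39% and 19.96% and the upstream region 92.8%, 48.0% and 80.4%. Outside CCGG, the core promoter was 2.56% in DU145 and 16.0% in PC3, the upstream region of DU145 47.8%, the gene body 74.8%, 95.3% and 76.9%, and the rise 45.3 points in DU145 and 67.6 in PC3. Without repeating sequence the gene body was 79.6%, 95.9% and 80.4%. With at least 20 reads, 22 of 235 CpGs were higher in HCT15 than in DU145 and 41 the other way. Genome-wide these were 93008 and 83557 of 1126948. Those higher in PC3 than in DU145 were 21 of 287, against 48946 of 1266488. At 50 points, 22 of 411 were higher in HCT15 than in DU145 and 36 the other way, against 79872 and 55847 of 1799022 genome-wide. Of 438, 22 were higher in HCT15 than in PC3 and 11 the other way, against 123356 and 33587 of 1789012. Of 455, 46 were higher in DU145 than in PC3 and 21 the other way, against 110904 and 30474 of 1875371. Bonferroni adjustment left 19, 33, 22, 2, 51 and 17 in the same order, of the same numbers tested. Genome-wide it left 62650, 33209, 74783, 16993, 78128 and 24679. The share in TERT was below that of the genome for CpGs higher in PC3 than in HCT15 by Bonferroni adjustment. It was also below for those higher in HCT15 than in PC3 at 50 points. The cause of these moves was not tested. The depth of the DU145 libraries of MethylMagnet, MethylCollector and MethylCollector Ultra limits what MBD-seq shows at the 5′ end.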
